A study of Homo sapiens with 6 samples.

Results

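The clustered histone genes are the protein-coding genes whose symbols begin with HIST1H, HIST2H, HIST3H or HIST4H, the older names of the genes that lie together in the human histone gene clusters. By that rule 71 of the 58302 genes in the deposited table were members. They were described in A549, a line grown out of a human lung adenocarcinoma, as RNA sequencing counts from 3 libraries of cells transfected with SNHG5, a long non-coding RNA, and 3 libraries of cells transfected with vector. All cells were grown in RPMI medium with fetal bovine serum, and the labels name biological replicates. The sources used here do not give the construct, nor whether the transfection was transient or made a selected line. Reads came from paired-end libraries made from total RNA with a TruSeq RNA kit that does not mark the strand. The standard protocol of that kit captures RNA by its poly(A) tail, and the sources used here do not say whether it was followed. The series title places SNHG5 in migration and invasion of lung adenocarcinoma cells, so the comparison below asks how the histone genes stood in the same cultures.

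Clustered histone genes make the bulk of the histone protein that packs newly replicated DNA. Pairs of H2A and H2B and a core of H3 and H4 form the nucleosome, and H1 binds the linker DNA between nucleosomes. Their usual mRNA carries no poly(A) tail: it ends shortly after a conserved stem-loop in the 3′ end, which is bound by the stem-loop binding protein SLBP, and it accumulates in S phase. Some of these genes also give longer or spliced transcripts with a poly(A) tail, which are known from differentiated and slowly dividing cells. A library made by poly(A) capture therefore sees mostly the second kind, and the level of histone genes in it depends on how the RNA was selected as well as on the cells.

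The stem-loop is the feature that sets this class of mRNA apart, so its sequence is shown for 7 of the members with the most counts. It was found in the GENCODE 29 transcripts of 32 members, in 6 distinct forms, of which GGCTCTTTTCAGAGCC was the most frequent with 17 members. The form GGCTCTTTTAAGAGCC was held by 5 members, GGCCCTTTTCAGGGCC by 5 and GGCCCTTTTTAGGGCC by 3. Each line gives 30 bases of the transcript, 5′ to 3′, with the 16 bases of the stem-loop in capitals and its GRCh38 position in front.
HIST1H2AC, chr6:26124669-26124684, plus strand: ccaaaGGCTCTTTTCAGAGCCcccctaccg
HIST2H2AA4, chr1:149851574-149851589, plus strand: caaaaGGCTCTTTTCAGAGCCacccacgtt
HIST1H2BD, chr6:26158587-26158602, plus strand: ccaaaGGCTCTTTTAAGAGCCacgcatgtt
HIST2H2BE, chr1:149886188-149886203, minus strand: ccaaaGGCTCTTTTCAGAGCCacccaccta
HIST1H3E, chr6:26225596-26225611, plus strand: ccaaaGGCTCTTCTCAGAGCCaaccacttt
HIST1H4H, chr6:26285131-26285146, minus strand: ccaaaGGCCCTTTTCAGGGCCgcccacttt
HIST2H4A, chr1:149833032-149833047, plus strand: ccaaaGGCCCTTTTTAGGGCCgaccacttg
The forms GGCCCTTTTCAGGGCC and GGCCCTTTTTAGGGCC were found in H4 genes alone, and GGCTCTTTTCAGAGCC in 6 H2A, 8 H2B and 3 H3 genes. In 23 of the 32 members a transcript was annotated to run more than 100 bases past the stem-loop, by 1128 bases in HIST1H2AC and 1729 bases in HIST2H2BE. The other 39 members had no such sequence in any annotated transcript, and 33 of these were annotated as coding sequence only, so that a stem-loop, if present, lies outside the annotated exons.

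Promoters of 66 of the 71 members were found in RefSeq's table for GRCh38.p14, as 300 bases around the start of each gene. They were searched on both strands for motifs that are known from histone promoters. A gene was counted where any of its promoters matched. The octamer ATTTGCAT, bound by the POU factor OCT1, was held by 14 of 18 H2B and 11 of 16 H2A genes, against 2.19% of all 27305 genes in the table. The H1 box AAACACA was held by all 6 H1 genes, against 6.94% of all. GGTCCG, the core of the H4 element that the factor HINFP binds, was held by 12 of 13 H4 genes, against 13.4% of all. CCAAT was held by 56 of the 66 members against 39.7% of all genes in the table, and TATAAA by 45 against 14%. The bases before the start are shown for the 2 members with the highest level per length, HIST1H2BK and HIST1H1C, and for HIST1H2AC, the member with the most counts. Capitals mark matches of the octamer, the H1 box, the TATA motif and the CCAAT motif on either strand. On the opposite strand the octamer reads ATGCAAAT, and the CCAAT motif reads ATTGG.
HIST1H2BK, chr6:27146859-27147058, minus strand: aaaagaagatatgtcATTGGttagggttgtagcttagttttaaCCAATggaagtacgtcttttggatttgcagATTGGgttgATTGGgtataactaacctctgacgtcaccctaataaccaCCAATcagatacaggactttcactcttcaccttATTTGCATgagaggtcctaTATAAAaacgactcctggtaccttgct
HIST1H2AC, chr6:26123972-26124171, plus strand: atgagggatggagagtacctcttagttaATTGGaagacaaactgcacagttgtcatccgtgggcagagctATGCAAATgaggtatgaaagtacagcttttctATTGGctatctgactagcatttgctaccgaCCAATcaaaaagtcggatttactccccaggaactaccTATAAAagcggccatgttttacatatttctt
HIST1H1C, chr6:26056471-26056630, minus strand: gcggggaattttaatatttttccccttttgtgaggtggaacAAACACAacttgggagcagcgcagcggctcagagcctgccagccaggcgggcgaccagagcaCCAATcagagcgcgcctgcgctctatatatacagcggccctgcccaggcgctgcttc
HIST1H2BK and HIST1H2AC share the octamer, the TATAAA match and 3 or more CCAAT matches, and HIST1H1C has the H1 box and 1 CCAAT match. These are matches of letters, and no factor binding was measured.

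A few members held most of the histone counts. Over the 6 libraries the 71 members had 15963 counts together, of which HIST1H2AC held 16.1%, the 5 highest members 54.8% and the 10 highest 77.8%. In counts the order was HIST1H2AC with 2563, HIST1H2BD with 1713, HIST1H2BK with 1674, HIST1H1C with 1621, HIST2H4A with 1180 and HIST2H2BE with 1074. Only the 24 members that passed the filter on low counts were tested, and these held 96.2% of the member counts. A further 36 members had between 1 and 42 counts in all, and 11 had 0 counts in every library. For 8 of those 11, a count of 0 allows a level of up to 0.175 to 0.218 CPM by library, taking 3 counts as the floor. The other 3, HIST1H3D, HIST1H2AD and HIST2H3PS2, share 98.0% or more of their sequence windows with other genes, and their 0 sets no such limit. CPM stands for counts per 1000000 of a library's total after adjustment by edgeR's TMM factors, and the floor covers counting error only.

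Per length the order changed. In CPM per kilobase of annotated exon, averaged over the 6 libraries, HIST1H2BK stood at 46.9, HIST1H1C at 27.5, HIST1H2BD at 21.1, HIST1H2AC at 16.6 and HIST2H2AA4 at 14.96. HIST1H2BK and HIST1H1C are annotated with 381 and 642 bases, their coding sequence alone, so that reads outside it were not assigned to them. HIST2H4A, HIST1H2BC and HIST2H2BE followed at 6.76, 6.33 and 5.29 CPM per kilobase. HIST1H4H came next at 3.91 CPM per kilobase, and all other members were lower.

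Members with an extended annotation held most counts. This grouping was made after the values were seen and is a description. In 26 members a transcript either ran more than 100 bases past the stem-loop or was spliced, and these held 69.5% of the counts, with 17 of the 26 tested and none at 0 counts. In 8 members the transcript ended within 100 bases of the stem-loop, and 2 of these had 0 counts, with 6.99% of the counts in the group. In 37 members with 1 exon and no stem-loop in the annotation, 4 were tested and 9 had 0 counts, and the group held 23.5% of the counts. Of its 3751 counts HIST1H2BK had 1674 and HIST1H1C had 1621. The median level per length was 0.655 CPM per kilobase in the extended members, 0.86 in those that end near the stem-loop and 0.191 in the 37 others. A longer annotation collects more reads at the same level per length, so the counts alone do not compare the groups.

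**Figure D1:**
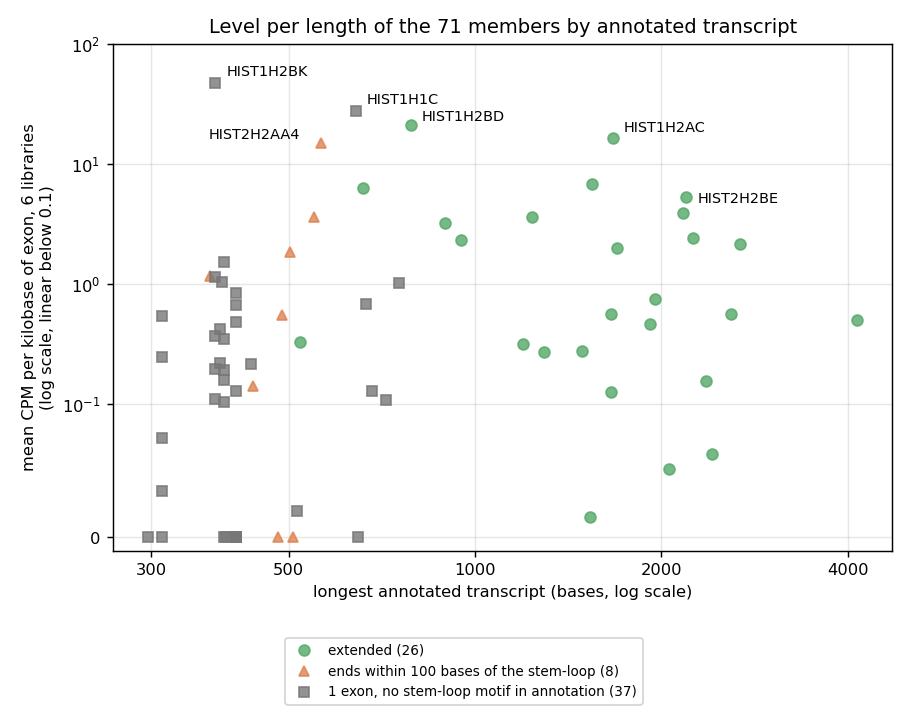
Mean CPM per kilobase of annotated exon over 6 libraries (vertical axis, log scale, linear below 0.1) against the longest annotated transcript (horizontal axis, log scale) for the 71 members, coloured by annotated 3′ end. HIST1H2BK at 46.9 and HIST1H1C at 27.5 stand highest although annotated as single short exons, and the points on the line at 0 are the 11 members with 0 counts.

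By position, the members formed 7 blocks separated by more than 300 kb. The HIST1 genes on chromosome 6 held 55 members in 3 blocks, of which the block of 34 genes between 25726132 and 26285638 held 51.1% of the counts. The block of 5 genes between 27125897 and 27147515, which holds HIST1H2BK, had 15.2% of the counts, and the block of 16 genes between 27807444 and 27893843 had 6.40%. The 12 HIST2 genes on chromosome 1 held 24.8%, the 3 HIST3 genes on the same chromosome 1.89% and HIST4H4, the single HIST4 gene on chromosome 12, 0.689%. The last block of chromosome 6 thus held few counts for its number of genes, and HIST1H3H with 427 was its highest member.

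Read sharing limits single members. A window of 50 bases was taken as shared where it also occurs in a transcript of another gene. All windows of HIST2H3A, HIST2H3C and HIST2H2AA3 were shared, as were 97.1% of those of HIST2H2AA4, 97.5% of HIST2H4A and 97.2% of HIST2H4B. For HIST1H2BK the share was 74.1%, mostly with H2BFS, a histone gene outside the clusters that had 2.53 to 4.26 CPM. HIST1H2AC and HIST1H1C shared 0.4% and 0% of their windows, so their values are the least touched by copies among the high members. The sources used here do not say how shared reads were divided, and values of the shared members are uncertain as single genes. HIST2H4A and HIST2H3C, and likewise HIST2H4B and HIST2H3A, also overlap by 230 bases on opposite strands, where an unstranded library cannot tell their reads apart.

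The libraries held 13378079 to 16999604 counts. SNHG5 itself stood at 153.3, 126.5 and 62.9 CPM in the libraries labelled overexpression 1, 2 and 3, against 61.0, 101.3 and 55.1 CPM in vector controls 1, 2 and 3. The library labelled overexpression 3 thus held about as much SNHG5 as controls 1 and 3, and the groups overlapped (log2 difference 0.66, SE 0.37, edgeR quasi-likelihood adjusted p 0.746), so that every direction below is between libraries as labelled. All 10 epithelial and A549 markers on a list were tested, with summed CPM of 8399, 9244 and 12790 against 11270, 16780 and 12640. Of other cell types, the endothelial markers summed to at most 0.185 CPM and the erythroid ones to at most 0.801 CPM in any library. Fibroblast markers summed to 5.46, 6.77 and 21.7 CPM in overexpression, against 11.5, 10.2 and 20.5 CPM in vector control. Among 8 immune markers 5, PTPRC included, were at 0 in all libraries, CD14 was at 1.69 CPM or less, and ITGAM ranged from 2.62 to 10.2 CPM over the 6 libraries. CD68, a lysosomal protein used as a macrophage marker, stood at 38.4, 39.5 and 25.7 CPM in overexpression, against 75.2, 91.6 and 91.6 CPM in vector control. All 3 overexpression libraries were below all 3 controls, a pattern that 7.52% of all genes had. CD68 did not pass the test (log2 fold change -1.32, edgeR adjusted p 0.0948). The part of these markers in the histone values was not tested. Vector control 2 stood apart from the other 5 libraries, with 28.1 CPM of MALAT1 and 23.4 CPM of NEAT1 against at least 118.3 and 101.9 CPM elsewhere, and with 2.57% of its counts from mitochondrial genes against 3.80% or more.

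No clustered histone gene passed the test between libraries labelled SNHG5 overexpression and vector control. With edgeR's quasi-likelihood test and Benjamini-Hochberg adjustment over all 15631 genes tested, 0 of 24 members had an adjusted p under 0.05, beside 20 genes or 0.128% of all. The smallest adjusted p of a member was 0.558, in HIST2H3A. At an unadjusted p under 0.05 there were 2 of 24 members, HIST2H3A and HIST1H2BK, against 6.49% of all genes. DESeq2 called 0 of 24 members beside 1.7% of all genes, and limma-voom 0 of 24 beside 0.147%. With the replicate number as a block, edgeR called 0 of 24 members beside 0.467% of all genes, with a smallest adjusted p of 0.462, and 5 members were at an unadjusted p under 0.05 against 9.29% of all genes. A p that misses the threshold does not show that the levels were equal: standard errors of the members' log2 fold changes ran from 0.28 to 0.77.

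The fitted differences were lower in the overexpression libraries in 16 of the 24 members, beside 49.3% of all genes. Their median log2 fold change was -0.27 against 0.01 over all genes, whose lower and upper quartiles were -0.26 and 0.27. The range was -1.37 in HIST2H2AA3 to 0.40 in HIST1H1E. In 4 members, HIST2H3A, HIST1H2BJ, HIST1H2BK and HIST3H2A, all 3 overexpression libraries were below all 3 controls, a pattern that 7.52% of all genes had, and in none were they all above, which 6.04% of all genes had. HIST3H2A was picked out after its values were seen. Vector control 2 was the highest of the 6 libraries in 13 of the 24 members, beside 25.8% of all genes. Without it, 14 of 24 members were fitted lower and the median was -0.06.

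**Figure D2:**
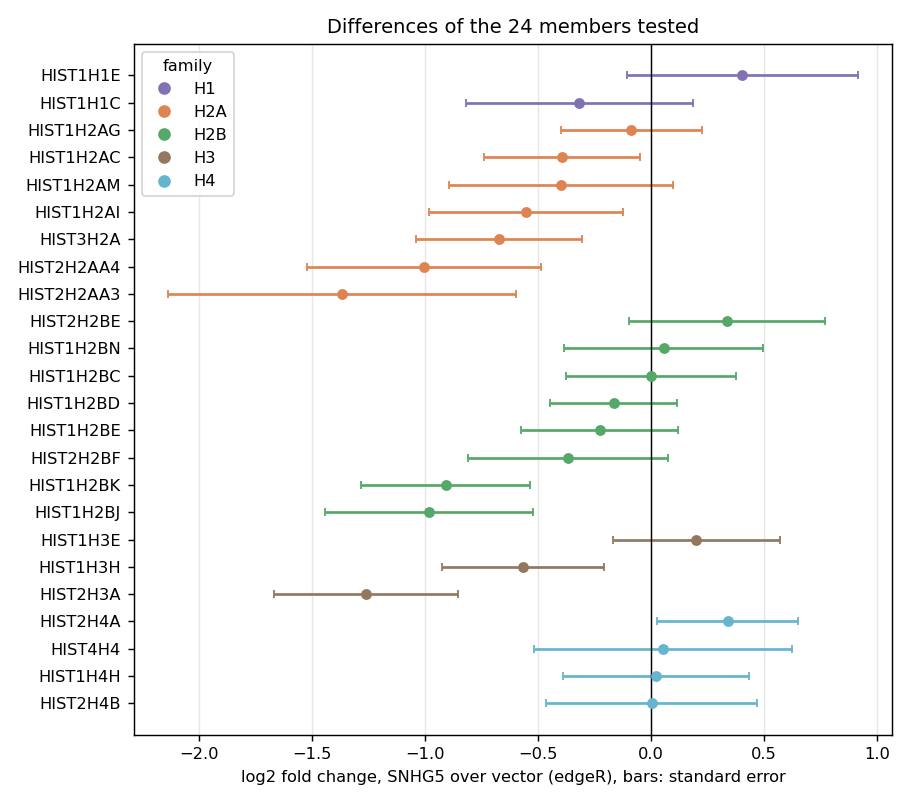
Log2 fold change of each of the 24 tested members, SNHG5 overexpression over vector control (horizontal axis), grouped by histone family, with bars of 1 standard error from edgeR. All 7 H2A members lie left of 0, the 4 H4 members lie at or right of 0 (with the replicate block 3 of the 4 fall below 0), and HIST2H2AA3 has the widest bar.

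The summed level of all 71 members did not separate the groups either. It was 156.4, 189.8 and 119.3 CPM in overexpression libraries 1, 2 and 3, against 173.9, 265.0 and 128.0 CPM in vector controls 1, 2 and 3. Library 2 was the highest and library 3 the lowest of its group in both, and the 2 groups overlapped. The means were 155.2 ± 35.3 CPM in overexpression and 189.0 ± 69.7 CPM in vector control (SD, n = 3 each). The mean log2 difference was -0.25 with vector control 2 and 0.03 without it, and the same-numbered pairs differed by -0.15, -0.48 and -0.10. As a share of all counts the members made up 0.0155%, 0.0195% and 0.0122% in overexpression, against 0.0169%, 0.0273% and 0.0122% in vector control, and the 0.0273% of control 2 had a 95% Wilson interval of 0.0265% to 0.0282%. The interval covers counting error only. The 36 members with counts and a length of 1000 bases or less behind their deposited FPKM summed to 34.5, 54.5 and 39.3 CPM in overexpression, against 52.6, 109.7 and 43.3 CPM in vector control, with a mean log2 difference of -0.59, or -0.19 without control 2. Of their 5157 counts, HIST1H2BK, HIST1H1C, HIST2H2AA4 and HIST2H2AA3 held 1674, 1621, 777 and 181. Without these 4, the mean log2 difference of all members was -0.12, against -0.25 with them. The 24 longer members summed to 122.0, 135.3 and 80.0 CPM in overexpression, against 121.3, 155.3 and 84.7 CPM in vector control, a mean log2 difference of -0.09, or 0.11 without control 2. Relative to the other controls, control 2 stood higher in the shorter members. The share was small in every library, and the highest histone level came from the library with the least MALAT1 and NEAT1, whose part in it was not tested. In bulk RNA, fewer cells in S phase and less histone RNA per cell cannot be told apart.

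**Figure D3:**
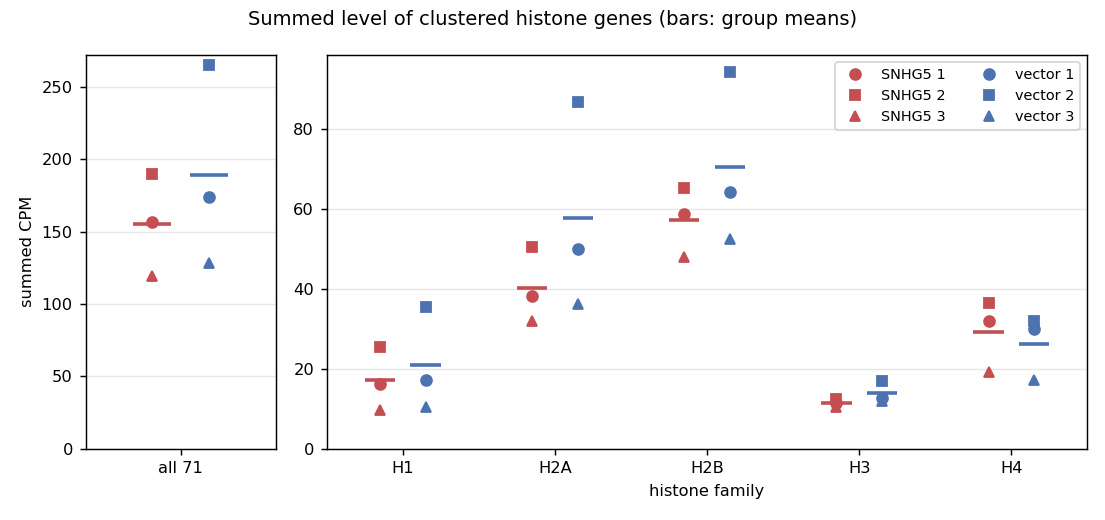
Summed CPM of all 71 members (left) and of each histone family (right) in each library, SNHG5 overexpression left of vector control, with a bar at each group mean. Vector control 2 is the highest library for all members at 265.0 CPM and for H1, H2A, H2B and H3, while for H4 overexpression 2 is the highest at 36.5 CPM.

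The H2A genes, whose product pairs with H2B in the nucleosome, were the largest tested family after H2B. All 7 tested H2A members were fitted lower in the overexpression libraries, under every scaling tried, and 6 of 7 without overexpression 1, vector control 1 or vector control 2. They are not 7 separate measurements. With near-identical copies summed, 6 of 6 were fitted lower. HIST1H2AM and HIST1H2AI shared 86.3% and 62.3% of their windows with other genes. The 17 H2A members summed to 38.1, 50.3 and 31.9 CPM in overexpression, against 49.98, 86.5 and 36.2 CPM in vector control, so that the groups overlapped. Same-numbered pairs differed by -0.39, -0.78 and -0.18 on the log2 scale. The mean log2 difference was -0.45, and -0.11 without control 2.

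HIST1H2AC (ENSG00000180573, chromosome 6, 26124145 to 26139116, plus strand, 3 annotated transcripts) was the member with the most counts. It stood at 25.9, 29.2 and 16.7 CPM in overexpression, against 28.5, 45.6 and 20.1 CPM in vector control. Each overexpression library was below its same-numbered control, yet the groups overlapped (log2 fold change -0.39, SE 0.35, adjusted p 0.765). How many of all genes had every same-numbered pair in the same direction was not counted, here and below. Without vector control 2 the log2 fold change was -0.03. HIST1H2AG had 4.13, 6.26 and 5.30 CPM in overexpression and 6.46, 6.30 and 3.88 CPM in vector control, with no order between the groups (log2 fold change -0.09).

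HIST2H2AA3 (ENSG00000203812, chromosome 1, 149842188 to 149842736, minus strand) and HIST2H2AA4 (ENSG00000272196, chromosome 1, 149851061 to 149851624, plus strand) are near-identical copies that code for the same H2A protein. HIST2H2AA4 stood at 3.88, 8.37 and 4.60 CPM in overexpression, against 7.53, 20.2 and 6.04 CPM in vector control (log2 fold change -1.005, SE 0.52, adjusted p 0.746). HIST2H2AA3 stood at 0.546, 2.11 and 0.699 CPM in overexpression, against 1.87, 5.77 and 0.924 CPM in vector control (log2 fold change -1.37, SE 0.77, adjusted p 0.746). Both copies overlapped between the groups and had their highest value in vector control 2. Summed, they held 4.43, 10.5 and 5.30 CPM in overexpression, against 9.40, 26.0 and 6.96 CPM in vector control, lower in 3 of 3 same-numbered pairs. The share of all genes with such agreement was not counted. Without control 2 the mean log2 difference of the sum was -0.37, against -0.93 with it. The rest of the tested H2A members, HIST3H2A, HIST1H2AI and HIST1H2AM, had log2 fold changes of -0.67, -0.55 and -0.40, and HIST3H2A held 1.88, 2.48 and 2.27 CPM in overexpression against 2.67, 5.18 and 2.71 CPM in vector control.

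**Figure D4:**
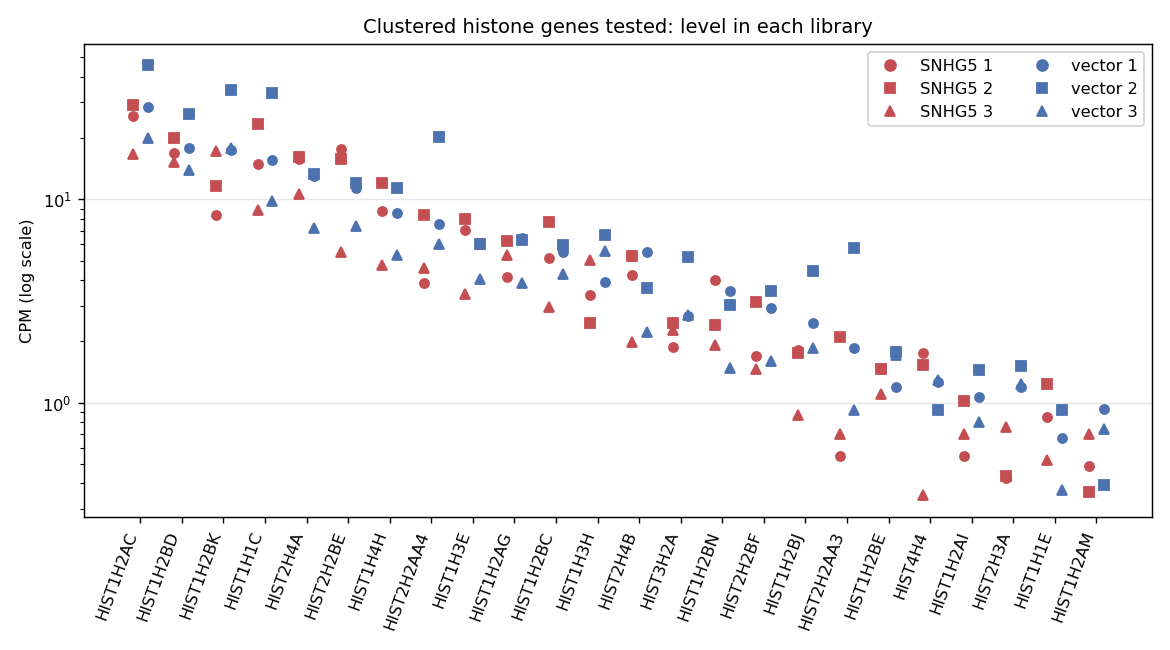
CPM of each tested member in each library (vertical axis, log scale), SNHG5 overexpression left of vector control within each member, members in order of mean level. The blue squares of vector control 2 are the highest points in 13 of the 24 members, among them HIST1H2AC, HIST1H2BK, HIST1H1C and HIST2H2AA4.

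The H2B genes held the most counts of any family, 37.2% of all member counts, and 6 of 8 tested were fitted lower in overexpression. Under RLE size factors, library totals alone and scaling on protein-coding genes this was 5 of 8, since HIST1H2BC lies at 0. The 18 H2B members summed to 58.6, 65.1 and 47.9 CPM in overexpression, against 64.2, 94.2 and 52.4 CPM in vector control. The same-numbered pairs differed by -0.13, -0.53 and -0.13 on the log2 scale. The mean log2 difference was -0.26, and -0.03 without control 2.

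HIST1H2BK (ENSG00000197903, chromosome 6, 27146418 to 27146798, minus strand, 1 exon) was the H2B gene with the highest level per length. It stood at 8.37, 11.7 and 17.2 CPM in overexpression, against 17.6, 34.6 and 17.8 CPM in vector control. Overexpression 1 and 2 were well below every control, while overexpression 3 lay just below control 1. The log2 fold change was -0.91 (SE 0.37), with an unadjusted edgeR p of 0.042 and an adjusted p of 0.743, and it stayed between -1.22 and -0.51 when any 1 library was left out. HIST1H2BJ, its neighbour in the same block, stood at 1.82, 1.75 and 0.873 CPM in overexpression, against 2.47, 4.46 and 1.85 CPM in vector control (log2 fold change -0.98, SE 0.46, adjusted p 0.746). In both members the groups did not overlap, in the direction that 7.52% of all genes had. HIST1H2AG, the other tested member of this block of 5 genes, lies between them and overlapped between the groups (log2 fold change -0.09).

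HIST1H2BD, the second member by counts, stood at 16.9, 19.9 and 15.3 CPM in overexpression, against 17.9, 26.4 and 13.98 CPM in vector control (log2 fold change -0.16, SE 0.28). HIST1H2BC stood at 5.16, 7.72 and 2.97 CPM in overexpression, against 5.53, 5.97 and 4.31 CPM in vector control (log2 fold change -0.00, SE 0.38). Neither gave an order between the groups. HIST2H2BE had 17.6, 15.7 and 5.53 CPM in overexpression, against 11.3, 12 and 7.39 CPM in vector control (log2 fold change 0.34, SE 0.43). It was highest in overexpression 1 and 2 and lowest in overexpression 3, so its highest and lowest values came from the same group. The other tested H2B members, HIST2H2BF, HIST1H2BE and HIST1H2BN, had log2 fold changes of -0.37, -0.23 and 0.06.

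H2A and H2B genes often lie head to head, with their promoters between them, and 11 such pairs with starts within 1000 bases were found among the members. Neighbours stood at unlike levels in some pairs and at like levels in others. HIST1H2BK stood at 46.9 CPM per kilobase, while HIST1H2AH, 330 bases away on the other strand, stood at 0.221 with 8 counts in all, although the printed promoter lies between them. HIST2H2BE stood at 5.29 CPM per kilobase against 1.03 for HIST2H2AC, and HIST3H2A at 3.20 against 0.155 for HIST3H2BB. Both genes were tested in 2 pairs. HIST1H2AC stood at 16.6 and HIST1H2BC, 218 bases away, at 6.33 CPM per kilobase, and HIST1H2AG and HIST1H2BJ, 291 bases apart, at 2.39 and 2.32. Within both pairs the H2A and H2B genes had different fitted differences, -0.39 and -0.00 in the first and -0.09 and -0.98 in the second, and these differences were not tested against each other.

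**Figure D5:**
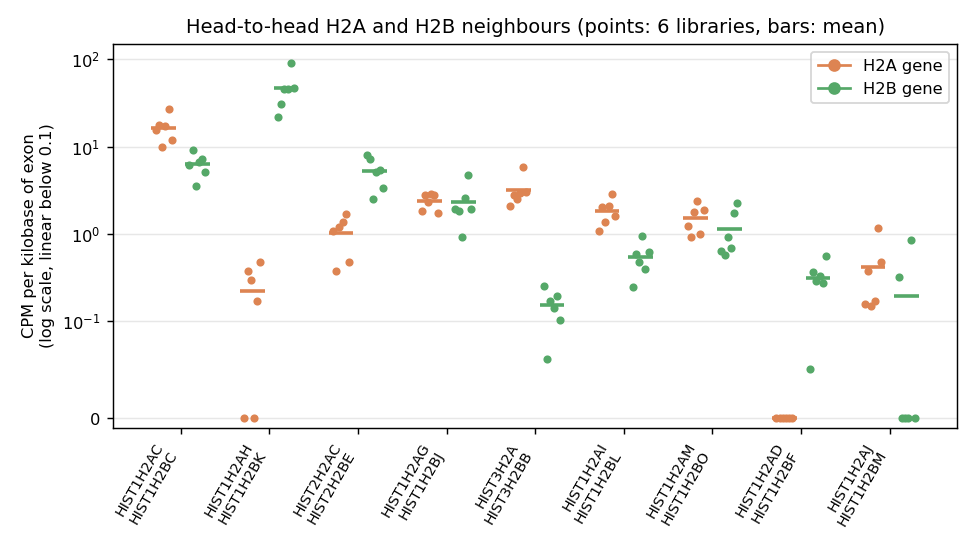
CPM per kilobase of annotated exon (vertical axis, log scale, linear below 0.1) for the 9 head-to-head H2A and H2B pairs with at least 20 counts, each point a library and each bar the mean of 6 libraries. HIST1H2BK at 46.9 and HIST1H2AH at 0.221 are the most unequal pair shown among those with counts in both genes, and HIST1H2AG and HIST1H2BJ the most equal.

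H3 genes, which code for the histone that carries many of the best known modified residues, held 7.42% of the member counts, with 3 of 15 tested. The family summed to 11.5, 12.5 and 10.5 CPM in overexpression, against 12.7, 16.99 and 11.9 CPM in vector control, with log2 differences of -0.14, -0.44 and -0.18 in the same-numbered pairs, and the groups overlapped. HIST2H3A (ENSG00000203852, chromosome 1, 149852619 to 149854274, plus strand, 1 exon) had the smallest p of any member. It had 7, 6 and 13 counts in overexpression, against 18, 23 and 20 counts in vector control, or 0.425, 0.437 and 0.757 CPM against 1.20, 1.51 and 1.23 CPM. Every overexpression library was below every control, with few counts in each (log2 fold change -1.26, SE 0.41, unadjusted edgeR p 0.015, adjusted p 0.558, and with the replicate block adjusted p 0.495).

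HIST2H3C, an exact copy of HIST2H3A in the annotation, had only 19 counts in all. The 2 copies summed to 0.425, 0.582 and 0.873 CPM in overexpression, against 1.47, 2.16 and 1.29 CPM in vector control. The groups did not overlap in the sum either, in the direction that 7.52% of all single genes had. The mean log2 difference of the sum was -1.42, or -1.20 without control 2. HIST1H3H had 3.40, 2.48 and 5.01 CPM in overexpression, against 3.93, 6.69 and 5.54 CPM in vector control (log2 fold change -0.57, SE 0.36, adjusted p 0.749). HIST1H3E, whose printed stem-loop form was found in no other member, had 7.10, 8.01 and 3.43 CPM in overexpression, against 6.00, 6.03 and 4.07 CPM in vector control (log2 fold change 0.20, SE 0.37).

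H4 genes code for the core histone that pairs with H3. The 15 members summed to 32.0, 36.5 and 19.3 CPM in overexpression, against 29.9, 31.8 and 17.2 CPM in vector control, so that each overexpression library exceeded its same-numbered control (log2 differences of 0.10, 0.20 and 0.17) while the groups overlapped. All 4 tested members were fitted at or above 0 in edgeR under every scaling, but 3 of the 4 were below 0 with the replicate block, with limma-voom and without overexpression 1 or 2, and 2 of the 4 without vector control 2 or 3. HIST2H4A (ENSG00000270882, chromosome 1, 149832659 to 149839767, plus strand) had 15.8, 16.1 and 10.7 CPM in overexpression, against 13.1, 13.3 and 7.21 CPM in vector control (log2 fold change 0.34, SE 0.31, adjusted p 0.776). With its near-identical copy HIST2H4B it summed to 20.02, 21.3 and 12.6 CPM in overexpression, against 18.6, 16.99 and 9.42 CPM in vector control, higher in each same-numbered pair. HIST1H4H stood at 8.80, 12.01 and 4.77 CPM in overexpression, against 8.53, 11.4 and 5.30 CPM in vector control (log2 fold change 0.02), and HIST2H4B and HIST4H4 had log2 fold changes of 0.00 and 0.05.

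Among the H1 genes of the linker histone, HIST1H1C (ENSG00000187837, chromosome 6, 26055787 to 26056428, minus strand, 1 exon) held 1621 of the 1748 counts. The summed H1 level differed by -0.09, -0.48 and -0.09 on the log2 scale in the same-numbered pairs, with a mean log2 difference of -0.22, or 0.25 without control 2. HIST1H1C alone stood at 14.9, 23.4 and 8.91 CPM in overexpression, against 15.7, 33.2 and 9.79 CPM in vector control. In both groups library 2 was the highest and library 3 the lowest, and libraries 1 and 3 of one group lay close to libraries 1 and 3 of the other. The log2 fold change of HIST1H1C was -0.32 (SE 0.50, adjusted p 0.858) and turned to 0.30 when vector control 2 was left out. With the replicate block the standard error was 0.22 and the log2 fold change -0.24, with an adjusted p of 0.659. HIST1H1E, which codes for another somatic linker histone, had 0.850, 1.24 and 0.524 CPM in overexpression, against 0.666, 0.918 and 0.370 CPM in vector control, higher in 3 of 3 same-numbered pairs, an agreement not counted over all genes (log2 fold change 0.40, SE 0.51, adjusted p 0.824). Its log2 fold change was 0.07 without overexpression 2 and 0.73 without vector control 2.

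The 47 members that were not tested held 3.82% of the counts. HIST1H1D, HIST1H2BO and HIST1H4J came closest to the filter with 42, 41 and 40 counts over 6 libraries, while HIST1H2AM, the lowest tested member, had 57. HIST1H4J is annotated to end 6 bases after its stem-loop, as the usual histone mRNA does. Of the histone genes known from testis, HIST1H1T had 7 counts, HIST1H2BA 1 count, and HIST1H2AA and HIST3H3 0 counts. The other members at 0 counts were HIST1H1A, HIST1H2AD, HIST1H2AE, HIST1H3D, HIST1H3F, HIST1H3I, HIST1H4F, HIST1H4G and HIST2H3PS2. A count of 0 does not show that they were silent. In HIST1H3D, HIST1H2AD and HIST2H3PS2, 100%, 98.0% and 100% of the 50-base windows also occur in other annotated genes, so reads from them may have been left out or counted elsewhere, which was not tested.

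Genes that make, process and handle histones were measured beside the clusters, and no gene of these lists passed the edgeR threshold in either direction, beside 0.0256% of all genes called higher and 0.102% called lower. At an unadjusted p under 0.05 there were 1 of the histone variants and 3 of the chaperones, and none of the other 3 lists, against 6.49% of all genes. The list of 12 histone variant genes, whose symbols fall outside the rule for members, had 7 fitted lower and a median log2 fold change of -0.09. H3F3A, one of the genes for the replication-independent H3 and picked out after its values were seen, had 23.5, 17.8 and 28.4 CPM in overexpression, against 10.6, 15.2 and 11.6 CPM in vector control (log2 fold change 0.90, SE 0.26, adjusted p 0.459). All 3 overexpression libraries were above all controls for it, as in 6.04% of all genes. H3F3B, another of these H3 genes and also named with its values known, stood far higher and was fitted the other way. It had 402.7, 380.4 and 293.5 CPM in overexpression, against 367.4, 459.1 and 358.0 CPM in vector control (log2 fold change -0.14, SE 0.21). H2AFX, the H2A variant phosphorylated at DNA breaks, had a log2 fold change of -0.70 (SE 0.45), the lowest of the list. H2AFZ, a variant found at promoters, had one of -0.56 (SE 0.36). Both were likewise named with their values known.

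Of 27 tested genes for histone transcription and mRNA processing, 12 were fitted lower, with a median of 0.14. NPAT, the coactivator of histone genes, had a log2 fold change of 0.37 (SE 0.35), and SLBP, which binds the stem-loop, one of -0.40 (SE 0.21, adjusted p 0.746), with 38.6, 37.1 and 37.0 CPM in overexpression against 57.0, 53.8 and 38.1 CPM in vector control. For SLBP the groups overlapped, since overexpression 1 lay just above control 3. Of 24 histone chaperone genes 15 were fitted lower, with a median of -0.12.

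Of 44 S phase genes 34 were fitted lower, with a median of -0.25, beside 49.3% of all genes. They summed to 2764, 2474 and 4026 CPM in overexpression, against 3505, 3608 and 3939 CPM in vector control. Overexpression 3 was the highest library for S phase genes while it was the lowest for the clustered histone genes at 119.3 CPM, so the libraries stood in a different order for the 2 sums. PCNA, the sliding clamp of DNA replication, was named with its values known and lay near the lowest log2 fold change of the list, -0.75. It had 190.7, 180.6 and 356.1 CPM in overexpression, against 308.9, 547.9 and 359.3 CPM in vector control (log2 fold change -0.74, SE 0.34, adjusted p 0.746). Mitosis genes summed to 3721, 3220 and 5003 CPM in overexpression, against 5015, 2635 and 4719 CPM in vector control, and here control 2, the highest library for histone genes, was the lowest. Genes with high counts weigh most in this sum, and not every gene followed it. TOP2A and CENPF stood at 248.3 and 184.0 CPM in control 2, against 796.7 and 754.0 CPM in control 1. CCNB1 and UBE2C were highest in control 2, at 249.3 and 93.9 CPM.

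Whether the histone counts came from RNA with or without a poly(A) tail was not measured. Members with an extended annotation held 69.5% of these counts. The libraries were also compared for RNA that usually carries no poly(A) tail. A list of 22 other such RNAs summed to 22.2, 43.7 and 10.4 CPM in overexpression, against 10.8, 31.6 and 22.4 CPM in vector control, most of it from the 7SL genes, and 5 of the 22 had 0 counts in every library. RNU7-1, a gene for the small nuclear RNA that pairs with histone pre-mRNA, stayed at or under 0.0728 CPM. Library 2 was the highest of its group for this list as it was for the clustered histone genes, while library 1 of the vector controls was the lowest of its group here and not there. Ribosomal RNA made up 1.14%, 1.04% and 1.12% of counts in overexpression, against 0.852%, 0.8% and 0.839% in vector control, a share that separated the groups while the histone share did not. What these shares contribute to the histone values was not tested.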

How the data were processed

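For each of 6 libraries the authors deposited a column of gene counts and a column of FPKM, per the file headers. FastQC, HISAT2 and GRCh38 are named per the submitters' processing notes, without versions or a stated role. The sources used here do not give the counting program, its strand setting or its annotation. Counts were summed and tested as deposited. The deposited FPKM values served to work out the length behind them, which for 47 of 47 members with 1 transcript and counts was that transcript's length within 1 base. For members with several transcripts that length exceeds the union of exons, so levels per length were computed as CPM per kilobase of the union in GENCODE 29, in which all 71 members matched in position and symbol.

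The main test was edgeR 4.0.16 in R 4.3.3 (TMM, filterByExpr, robust quasi-likelihood), two-sided, adjusted by Benjamini-Hochberg over 15631 genes at 0.05. Library totals were 13378079 to 16999604 counts, so 3 counts correspond to 0.175 to 0.218 CPM. A standard error is the log2 fold change divided by the square root of the F statistic. Simulated counts were used to test this step. Of the changes put in, 14% of 2-fold and 70.7% of 4-fold ones were called, and 8.5% of calls were false. The changed genes were drawn from all genes tested, so these rates are not those of the members. The simulated libraries were drawn independently, without the pairing described below. Libraries with the same replicate number deviated together from their group means (r across genes of 0.35, 0.16 and 0.29, each above 0.1). Of unlike numbers, overexpression 2 and vector control 1 also passed 0.1, with r of 0.12. The labels' protocol speaks of pairs of transfected cells. A shared number was therefore treated as a pair in the replicate block and in the same-numbered differences. The sample titles number the libraries but name no pairs, and the correlations came from the same counts that the block was fitted to. The main test used the group alone and no pairing.

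Members and lists were chosen with earlier results of these data known. Members named with values are the 12 tested ones with the highest mean CPM, the 3 with the largest log2 fold change in each direction, the highest of each family and the head-to-head pairs with both genes tested, and others are said to be picked out after their values were seen or are named for their place among the members. Alternatives were the replicate block, other size factors, no filter, a filter of 20 counts in every library, DESeq2 1.42.0, limma-voom (limma 3.58.1), summed copies and leaving out each library.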

Additional observations from a re-analysis of the deposited data

How the results depend on the processing

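No clustered histone gene was called in any of 15 alternative settings, 6 of which left out 1 library. With the replicate number as a block the median log2 fold change of the 24 members was -0.23, against -0.27 without it, and the block changed no call of a member. The median ran from -0.37 to -0.06 when 1 library was left out, over the 24 to 26 members then fitted, with -0.06 reached without vector control 2. In the other settings it ran from -0.38 to -0.12, and these ends cover different members. The -0.38 is over the 60 members fitted without a filter, and the -0.12 over the 16 of the stricter filter. The log2 ratio of the summed CPM ran from -0.50 to 0.03 when 1 library was left out and from -0.26 to -0.20 otherwise. Members fitted lower numbered 14 to 20 of 24 without 1 library and 15 to 19 in the other settings that fitted all 24. Of 235 values of 16 named members, 19 turned in sign, in 6 members and without a call, and HIST1H2BC accounted for 8 of them and HIST1H4H for 5. The stricter filter left 16 members. Leaving out a library leaves 2 against 3, and limma-voom gives no summed CPM of its own. With 3 libraries a group and a common biological coefficient of variation of 30.8%, 26.2% with the block, and few counts in most members, small differences were not detectable. Over all genes tested, differences of 2-fold were mostly missed as well, with 14% of them recovered in simulated counts. The rate at the members' own counts was not measured. The largest fold of a member was 2.58, in HIST2H2AA3.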
